A study of Mus musculus with 18 samples.

Results

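A set of 10 marker genes of mouse embryonic stem cells (ESCs) that lie outside the core pluripotency network was followed: Dppa2, Dppa3, Dppa4, Dppa5a, Zfp42, Fbxo15, Tdh, Utf1, Tex19.1 and Pecam1. They were taken as a list of names and not by a cut on measured values, but with earlier results of these data known. They are 10 of 53801 genes in the count table. All 10 were among the 18469 genes with enough reads to be tested, and the lowest raw count of any of them in any library was 39. RNA was sequenced from WT cells, the E14TG2a ESC line, and from iEZR_CA cells, E14 ESCs carrying a PiggyBac transgene that doxycycline switches on. The transgene encodes a phosphomimetic, constitutively active form of ezrin, a protein that ties the plasma membrane to the actin cortex, followed by mCherry. The 6 groups were WT and iEZR_CA cells in 2i+LIF, which holds ESCs in naive pluripotency (ESC, 0 h), and both lines in N2B27 without those factors for 24 h (named T24) or for 48 h (named T48), with 3 libraries each. Doxycycline was given to the iEZR_CA cells some 16 h ahead of exit, and the sources used here do not mention it for WT cells, so drug and transgene cannot be told apart in any comparison of the lines. Nothing in the sources used here says whether the iEZR_CA line is a single clone.

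These genes are used as readouts of the early embryonic state because their transcripts are abundant in the inner cell mass or in ESCs and are lost in most somatic cells. They do not belong to a single pathway. Some encode chromatin and DNA-binding proteins, some an RNA-binding protein, an enzyme or an adhesion molecule. They also differ in timing: some mark the naive state of the pre-implantation epiblast, and others stay on, or rise, in the formative epiblast that follows it.

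Each library held between 10940752 and 33276622 reads on genes, and replicates differed by more than sampling noise (chi-square divided by its degrees of freedom 1.61 to 3.59). The study calls the libraries of a group biological replicates, but the labels do not say what separates them, so that p-values measure the spread between these libraries. Replicate numbers below only count the libraries of a group in sample order. They do not come from the labels and pair no libraries across groups. Ezr, which checks the line labels, had 11763 ± 277 normalized counts in WT and 24819 ± 499 in iEZR_CA cells in ESCs, 7711 ± 175 normalized counts in WT and 20793 ± 564 in iEZR_CA cells at T24, 10096 ± 413 normalized counts in WT and 16215 ± 165 in iEZR_CA cells at T48 (SD, n = 3). At each stage the 3 iEZR_CA libraries had more Ezr than any WT library (two-sided exact permutation test, p = 0.1, the smallest that 3 libraries against 3 allow). The 6 ESC markers Pou5f1, Sox2, Nanog, Sall4, Esrrb and Lin28a summed to between 1888 and 4013 CPM (read counts scaled to the same library total) in every library. The lists for other cell types were lower: 63.4 to 303 CPM for 10 primitive endoderm markers, 68.6 to 299 for 6 germ cell precursor markers, 7.92 to 24.9 for 7 trophoblast markers and 1.67 to 30.5 for 7 fibroblast markers. The primitive endoderm list moved with line and time. At T48 it stood at 277 to 303 CPM in WT and 129.6 to 137 CPM in iEZR_CA cells, with Lamb1 the most abundant of its genes. Of the 10 genes, 7 were called lower and 1 higher in iEZR_CA cells at T48, where 30.1% of all genes tested were called lower and 31% higher. The part of primitive endoderm cells in the values below was not tested. These are bulk RNA measurements, in which fewer cells expressing a gene and less RNA per cell cannot be told apart.

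The promoter sequence was read for the 3 genes of the set that RefSeq's promoter table for GRCm38.p6 holds. They were not picked by their courses, which differed. Zfp42 fell and fell later in iEZR_CA cells, Utf1 rose in both lines, and Tex19.1 rose and then fell below its starting level in WT cells. Each line gives the 250 bases before the RefSeq transcription start, 5′ to 3′ on the gene's strand, with matches to the motifs searched in capitals.
Zfp42 (chr8:43307010-43307259, minus strand): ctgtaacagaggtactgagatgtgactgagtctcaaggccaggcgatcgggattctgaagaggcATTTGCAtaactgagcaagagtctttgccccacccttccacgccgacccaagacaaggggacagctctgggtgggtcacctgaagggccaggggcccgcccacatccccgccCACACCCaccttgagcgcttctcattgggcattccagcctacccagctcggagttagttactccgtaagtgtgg
Utf1 (chr7:139943606-139943855, plus strand): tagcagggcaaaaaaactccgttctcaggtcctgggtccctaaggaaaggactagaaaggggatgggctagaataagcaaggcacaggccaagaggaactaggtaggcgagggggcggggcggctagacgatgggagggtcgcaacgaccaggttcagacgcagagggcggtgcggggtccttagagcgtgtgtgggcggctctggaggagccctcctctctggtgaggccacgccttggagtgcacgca
Tex19.1 (chr11:121145893-121146142, plus strand): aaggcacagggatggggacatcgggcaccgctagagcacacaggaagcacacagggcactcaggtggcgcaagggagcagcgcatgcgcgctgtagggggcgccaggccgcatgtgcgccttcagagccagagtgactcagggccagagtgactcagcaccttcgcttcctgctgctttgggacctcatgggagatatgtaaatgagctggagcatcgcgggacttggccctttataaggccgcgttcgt
The motifs searched on both strands were the octamer TGCAAAT, the SOX motif ATTGTT, the nuclear receptor core site AAGGTCA, the KLF motif GGGTGTG, the E-box CACGTG and the E2F motif GCGGGAA. The Zfp42 window held an octamer match 186 to 180 bases before the start and a KLF match 74 to 68 bases before it, both on the opposite strand. The windows of Utf1 and Tex19.1 held none of the 6. Among 32851 promoters searched in the same way, 3.56% held the octamer, 9.42% the SOX motif, 4.08% the core site, 6.93% the KLF motif, 6.02% the E-box and 3.82% the E2F motif. The Utf1 and Tex19.1 windows also had the higher ratio of observed to expected CpG, 0.638 and 0.643, with 0.423 for Zfp42 and a median of 0.373 over all promoters.

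Zfp42, also called Rex1, encodes a zinc finger protein related to YY1 and is the most used reporter of the naive state (chromosome 8, 43295063 to 43306980, minus strand, GRCm38). Its level is given in normalized counts, reads divided by the library's size factor, and differences as edgeR's log2 fold change ± its standard error (SE). In WT cells it had 17903, 17955 and 18921 in the 3 ESC libraries, 12772, 12516 and 11985 at T24 and 815, 836 and 810.2 at T48. In iEZR_CA cells it had 17772, 17381 and 17548 in ESCs, 17924, 17301 and 17888 at T24 and 4715, 5040.3 and 5383 at T48. The WT libraries of the 3 stages did not overlap, whereas the T24 and ESC libraries of iEZR_CA cells overlapped, and at T48 every iEZR_CA library was above every WT library. Such separation of the lines was common among all genes tested. The iEZR_CA libraries were all above the WT libraries for 28.9% of genes in ESCs, 32.2% at T24 and 32.2% at T48. They were all below for 29.2%, 31.7% and 32.3%. Measured against the ESC mean of its own line, Zfp42 stood at 68% ± 2.20 (SD, n = 3) in WT and 101% ± 1.99 in iEZR_CA cells at T24, and at 4.49% ± 0.0742 and 28.7% ± 1.90 at T48. The lines did not differ past the threshold in ESCs (log2 fold change -0.063 ± 0.030 SE, adjusted p = 0.073), where the call passed without WT ESC replicate 1 (adjusted p = 0.04) and when iEZR_CA T48 replicate 1 or 3 was left out of the shared fit (0.036 and 0.037). They differed at T24 (log2 fold change 0.51 ± 0.030 SE, adjusted p = 3.1e-18) and at T48 (log2 fold change 2.63 ± 0.039 SE, adjusted p = 2.2e-39), a 6.18-fold difference that ranked 490 by size among the genes tested. Between T24 and T48 Zfp42 dropped 15.2-fold in WT cells and 3.51-fold in iEZR_CA cells.

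**Figure D1:**
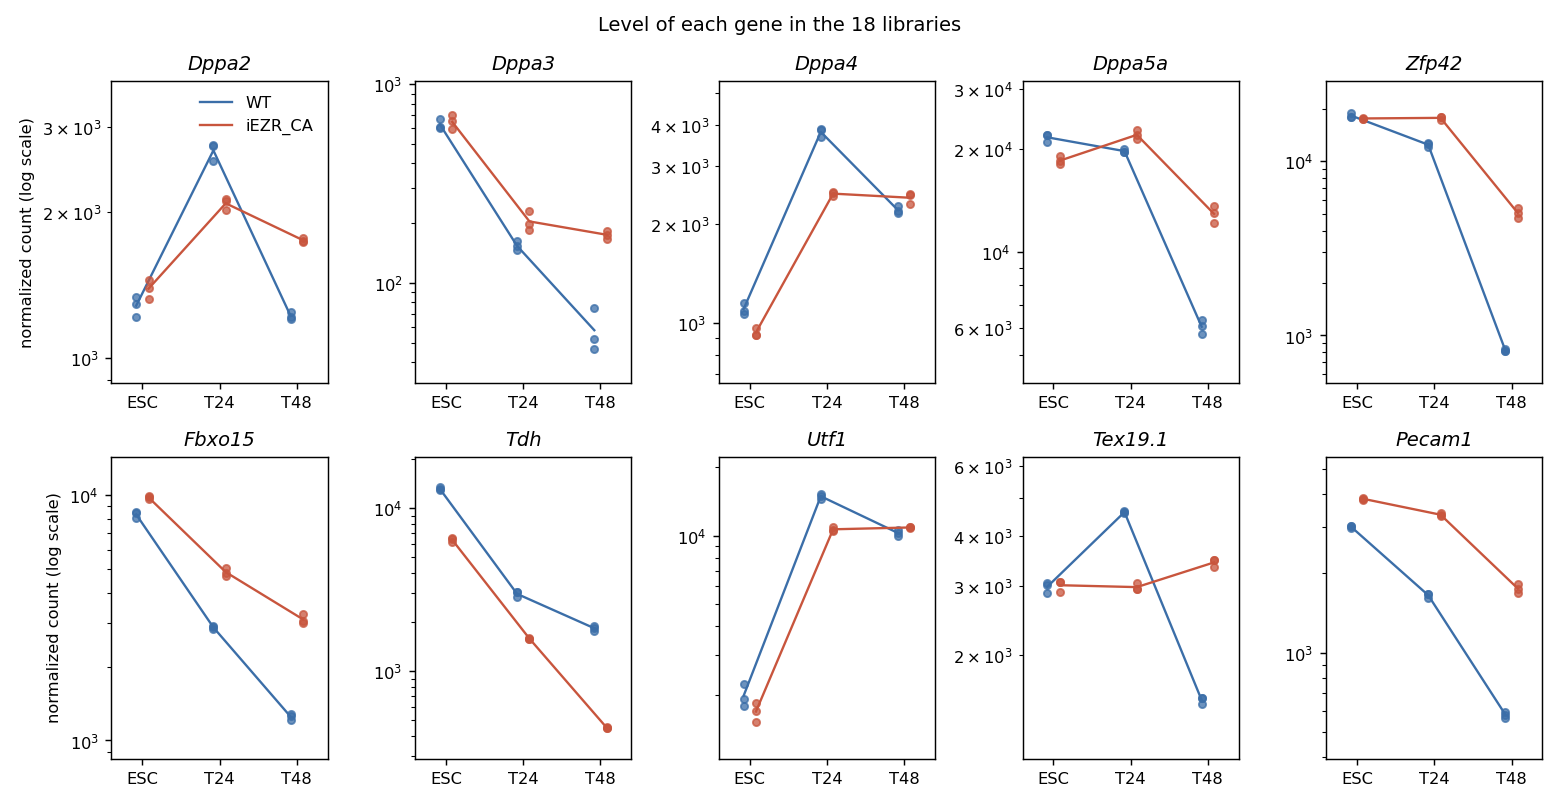
Normalized count (log scale, with a separate range in each panel) of each of the 10 genes in the 18 libraries, 1 point a library and a line through the group means, for WT (blue) and iEZR_CA (red) cells at ESC, T24 and T48. Zfp42 of iEZR_CA cells stays at its ESC level at T24, Utf1, Dppa2 and Dppa4 rise at T24 in both lines, and Tdh of iEZR_CA cells is the lower at each stage.

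Dppa5a encodes a small KH-domain protein that binds RNA and was among the most abundant transcripts of the set (chromosome 9, 78367052 to 78368177, minus strand). WT cells had 20905, 21976 and 22006 normalized counts in ESCs, 19534, 19572 and 20027 at T24 and 6325, 6063 and 5762 at T48. iEZR_CA cells had 18029.6, 19011 and 18399 in ESCs, 21339.8, 21961 and 22682 at T24 and 12187, 12983 and 13601 at T48. The lines crossed: the iEZR_CA libraries were the lower in ESCs and the higher at T24 and T48, without overlap at any stage. The T24 change went in opposite directions, falling in WT cells (log2 fold change -0.15 ± 0.038 SE, adjusted p = 0.0024) and rising in iEZR_CA cells (log2 fold change 0.25 ± 0.038 SE, adjusted p = 1.6e-05). Scaled to spike-in counts, the WT fall was -0.011 (adjusted p = 0.95). The differences between the lines were then -0.18 in ESCs and 0.23 at T24 and no longer passed (adjusted p = 0.3 and 0.13). The later fall in iEZR_CA cells from ESC to T48 was -0.25 by that scaling and did not pass either (adjusted p = 0.07). At T48 Dppa5a was 2.14-fold higher in iEZR_CA cells (log2 fold change 1.10 ± 0.040 SE, adjusted p = 4.2e-15), at 69.9% ± 3.84 of its ESC mean against 28% ± 1.3 in WT cells.

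Fbxo15, Pecam1 and Dppa3 fell in both lines and fell less in iEZR_CA cells. Fbxo15 encodes an F-box protein, the part of an SCF ubiquitin ligase that picks the substrate, and has long served as an ESC reporter locus (chromosome 18, 84934782 to 84981473, plus strand). WT cells had 8066, 8532 and 8432 normalized counts in ESCs, 2840.2, 2934 and 2896 at T24 and 1215, 1256 and 1280.0 at T48. iEZR_CA cells had 9931, 9807 and 9632 in ESCs, 4816, 4689.6 and 5063 at T24 and 3019, 3263 and 3072 at T48. iEZR_CA libraries were the higher at each stage without overlap, by 0.22 in ESCs, 0.75 at T24 and 1.33 at T48, as log2 fold changes (standard errors 0.029, 0.031 and 0.035, adjusted p = 4.6e-10, 5.4e-32 and 4.6e-43 by edgeR). The difference in ESCs did not pass when libraries were scaled to spike-in counts (log2 fold change 0.28, adjusted p = 0.074). In percent of the line's own ESCs, Fbxo15 stood at 15% ± 0.395 in WT and 31.8% ± 1.31 in iEZR_CA cells at T48.

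Pecam1 (CD31) encodes an adhesion molecule of the immunoglobulin family found on endothelium and on the surface of naive ESCs (chromosome 11, 106654217 to 106750628, minus strand). It had 3036, 3031 and 2971 normalized counts in WT ESCs, 1618, 1672 and 1671 at T24 and 597, 564 and 581 at T48. In iEZR_CA cells the values were 3830.3, 3884 and 3821 in ESCs, 3295, 3391 and 3352 at T24 and 1686, 1823 and 1752 at T48. No library of a line overlapped the other line at the same stage, and iEZR_CA cells were the higher throughout, by 0.35, 1.02 and 1.59 on the log2 scale in ESC, T24 and T48 (standard errors 0.031, 0.034 and 0.041, adjusted p = 2.5e-15, 1.4e-37 and 1.7e-43 by edgeR). At T24 Pecam1 kept 87% ± 1.25 of its ESC level in iEZR_CA cells and 54.9% ± 1.01 in WT cells. The small T24 fall in iEZR_CA cells (log2 fold change -0.20 ± 0.031 SE, adjusted p = 6.5e-08) was not called under spike-in scaling (log2 fold change -0.053, adjusted p = 0.8). Other endothelial markers were low, with Emcn at 0 reads in every library, Cdh5 at a mean of 0.419 normalized counts, and all 8 markers together at 21.1 to 58.2 CPM. Of the 5 tested, Tek and Vwf were the most abundant and, at T48, were both higher in iEZR_CA cells (log2 fold change 0.85 and 3.03), while Cldn5 and Tie1 were lower (-0.56 and -1.41) and Kdr was not called (0.12). Their part in the values of Pecam1 was not tested.

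Dppa3 (Stella) encodes a small protein of oocytes, early embryos and germ cells that binds UHRF1 and so limits maintenance DNA methylation (chromosome 6, 122626410 to 122630272, plus strand). It had the lowest normalized counts of the set. WT ESCs had 673, 608 and 605, T24 cells 162, 146 and 153 and T48 cells 52.6, 74.6 and 46.6. iEZR_CA cells had 699, 651 and 594 in ESCs, 229, 199 and 185 at T24 and 175, 184 and 167 at T48. The ESC libraries of the lines overlapped, the iEZR_CA libraries were above all WT libraries at T24 and T48, and the WT T48 libraries had a mean of 57.9 ± 14.7 (SD, n = 3). In ESCs the difference did not pass (log2 fold change 0.048 ± 0.064 SE, adjusted p = 0.56), and its sign turned without iEZR_CA ESC replicate 1 (-0.0021). It was 0.38 at T24 and 1.70 at T48 (adjusted p = 0.00065 and 4.8e-19 by edgeR), a 3.26-fold difference at T48. From T24 to T48 Dppa3 fell 2.87-fold in WT cells, while in iEZR_CA cells the change did not pass the threshold (log2 fold change -0.20 ± 0.095 SE, adjusted p = 0.071), except when WT T48 replicate 2 or iEZR_CA T24 replicate 3 was left out (adjusted p = 0.044 and 0.031).

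Dppa2, Dppa4 and Utf1, which encode chromatin-bound proteins, rose on leaving 2i+LIF, and all 3 were lower in iEZR_CA than in WT cells at T24. Dppa2 and Dppa4 are SAP-domain proteins that form a heterodimer at promoters, and their genes are neighbours on chromosome 16 (48303908 to 48319723 and 48283733 to 48294237, both on the plus strand). Dppa2 had 1337, 1212 and 1293 normalized counts in WT ESCs, 2739, 2555 and 2754 at T24 and 1200.2, 1245 and 1215 at T48. In iEZR_CA cells it had 1323, 1394 and 1449 in ESCs, 2018, 2109.7 and 2128 at T24 and 1772, 1743 and 1734 at T48. Dppa2 thus peaked at T24 in both lines, the peak was the lower in iEZR_CA cells, and by T48 the WT libraries overlapped those of WT ESCs while the iEZR_CA libraries were above all ESC libraries. In ESCs the libraries of the lines overlapped and the difference was small (log2 fold change 0.11 ± 0.042 SE, adjusted p = 0.019). It was not called without WT ESC replicate 2 or without iEZR_CA ESC replicate 2 or 3 (adjusted p = 0.21, 0.075 and 0.11), with no filter on low counts (0.14), or with spike-in scaling (0.37, at a log2 fold change of 0.17). It was -0.36 at T24 and 0.53 at T48 (standard errors 0.037 and 0.041, adjusted p = 2.2e-13 and 1.5e-18 by edgeR), of which the T24 value was not called with spike-in scaling (log2 fold change -0.29, adjusted p = 0.059).

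Dppa4 had 1063, 1091 and 1152 normalized counts in WT ESCs, 3881, 3848 and 3674 at T24 and 2151, 2185 and 2262 at T48. iEZR_CA cells had 918, 922 and 969 in ESCs, 2474, 2429 and 2506 at T24 and 2298, 2439 and 2460.5 at T48. Dppa4 of iEZR_CA cells reached its T24 level and stayed there, with overlapping T24 and T48 libraries (log2 fold change -0.040 ± 0.035 SE, adjusted p = 0.33; the log2 fold change was 0.075 with spike-in scaling), while in WT cells it fell again by 0.79 on the log2 scale. It was lower in iEZR_CA cells in ESCs (log2 fold change -0.25 ± 0.043 SE, adjusted p = 1e-06) and at T24 (log2 fold change -0.62 ± 0.034 SE, adjusted p = 7.7e-26) and higher at T48 (log2 fold change 0.13 ± 0.035 SE, adjusted p = 0.0012). With spike-in scaling the values for ESCs and T48 were -0.18 and 0.19 and did not pass (adjusted p = 0.31 and 0.24). Both genes are known to act upstream of Dux and the Zscan4 family, transcripts of the 2-cell embryo. Of 17 such genes listed, 16 were found by symbol and 10 had enough reads to be tested, and together they gave 2.59 to 17.2 CPM.

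Utf1 encodes a chromatin-bound protein of the epiblast and germ line (chromosome 7, 139943789 to 139945112, plus strand). WT cells had 1799, 1917 and 2240.2 normalized counts in ESCs, 15192, 14438 and 14978 at T24 and 10584, 10281 and 9929 at T48. iEZR_CA cells had 1534, 1711 and 1842 in ESCs, 10623, 10462 and 10879 at T24 and 10911, 10889.9 and 10764 at T48. This was the steepest rise of the set, 7.41-fold in WT and 6.28-fold in iEZR_CA cells from ESC to T24, and the ESC libraries of the lines overlapped. The lines differed in ESCs (log2 fold change -0.24 ± 0.076 SE, adjusted p = 0.015) and at T24 (log2 fold change -0.48 ± 0.062 SE, adjusted p = 1.3e-05), and not past the threshold at T48 (log2 fold change 0.087 ± 0.062 SE, adjusted p = 0.25), although the 3 iEZR_CA libraries lay above the 3 WT libraries there. The call in ESCs was lost without iEZR_CA ESC replicate 1 (adjusted p = 0.071), with only the groups compared (0.13) and with spike-in scaling (0.33, at a log2 fold change of -0.17). At T48 a call was made with no filter on low counts (adjusted p = 0.01) and with only the groups compared (0.0032). WT cells then fell by 0.54 on the log2 scale from T24 to T48, and iEZR_CA cells changed by 0.029 (adjusted p = 0.72 by edgeR).

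Tex19.1 encodes a protein of germ cells and pluripotent cells that helps to keep retrotransposons in check (chromosome 11, 121146143 to 121148319, plus strand). It had 2869, 3051 and 3016 normalized counts in WT ESCs, 4572, 4616 and 4609 at T24 and 1557, 1505 and 1558 at T48. In iEZR_CA cells it had 2886, 3062 and 3070.2 in ESCs, 2945, 2934 and 3039.8 at T24 and 3343, 3479 and 3475 at T48. WT cells rose 1.53-fold and then dropped 2.98-fold, and the 3 stages did not overlap. iEZR_CA cells did not change past the threshold from ESC to T24 (log2 fold change -0.019 ± 0.032 SE, adjusted p = 0.64; the log2 fold change was 0.13 with spike-in scaling) and rose slightly from T24 to T48 (log2 fold change 0.21 ± 0.031 SE, adjusted p = 3.5e-08). The lines overlapped in ESCs (log2 fold change 0.0040 ± 0.032 SE, adjusted p = 0.93, with either sign among the alternatives), iEZR_CA cells were the lower at T24 (log2 fold change -0.63 ± 0.031 SE, adjusted p = 7.3e-28) and the higher at T48 (log2 fold change 1.16 ± 0.034 SE, adjusted p = 1.9e-40). No other gene of the set was higher in iEZR_CA cells at T48 than at T24 by this test.

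Tdh, threonine dehydrogenase, the mitochondrial enzyme that starts the breakdown of threonine to glycine and acetyl-CoA in mouse ESCs, was the gene of the set that ran the other way (chromosome 14, 63492347 to 63509092, minus strand). WT cells had 12916, 13415 and 13022 normalized counts in ESCs, 3061, 3038 and 2834 at T24 and 1773, 1889 and 1837 at T48. iEZR_CA cells had 6514, 6461 and 6189 in ESCs, 1607, 1567 and 1576 at T24 and 454, 450.1 and 446 at T48. Every iEZR_CA library lay below every WT library of its stage, already before exit. The log2 fold change was -1.04 in ESCs, -0.92 at T24 and -2.01 at T48 (standard errors 0.028, 0.033 and 0.041, adjusted p = 3e-42, 2.3e-35 and 1.8e-49 by edgeR). Relative to its own ESCs, Tdh stood at T24 at 22.7% ± 0.953 in WT and 24.8% ± 0.324 in iEZR_CA cells, and at T48 at 14% ± 0.444 in WT and 7.05% ± 0.0636 in iEZR_CA cells. A stretch of 66 bases of its exons overlaps Gm17232 on the opposite strand, a gene with at most 54 reads in any library.

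The genes around Tdh were lower in iEZR_CA cells as well. Of 45 tested genes within 2.5 Mb on either side, 40 were called lower and 3 higher in ESCs, 29 and 3 at T24, and 37 and 3 at T48. Their median log2 fold change was -0.92 in ESCs, -0.71 at T24 and -0.89 at T48, and the median over all 642 tested genes of chromosome 14 was -0.30, -0.35 and -0.25. The difference in Tdh was thus close to that of its surroundings in ESCs and at T24, and larger at T48. Zfp42 lay among 19 tested genes whose medians were 0.37, 0.33 and 0.36, where its own values were -0.063, 0.51 and 2.63. The median over all 957 tested genes of its chromosome 8 was also above 0, at 0.18, 0.21 and 0.18. Around Dppa5a the medians of 31 genes were 0.19, 0.11 and 0.30. For the other 7 genes the medians of the surroundings lay between -0.21 and 0.16, while the genes themselves reached 1.70 for Dppa3. Whether the copy number of these regions differed between the lines was not tested.

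**Figure D2:**
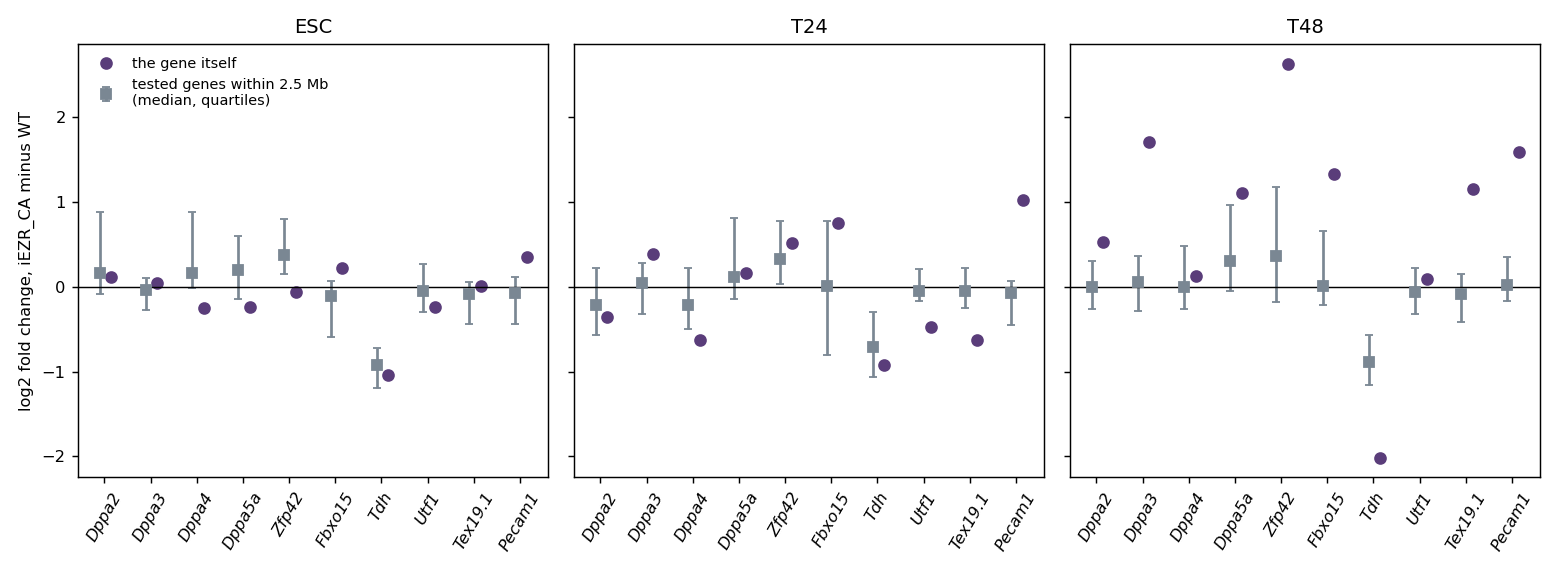
Log2 fold change of iEZR_CA over WT cells for each gene (circles) and for the tested genes within 2.5 Mb of it (squares, median with quartiles) at ESC, T24 and T48. The surroundings of Tdh sit below 0 at all 3 stages, and at T48 the circle of Zfp42 lies above the upper quartile of its surroundings.

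Between the lines, the set was mixed in ESCs and at T24 and mostly higher in iEZR_CA cells at T48. In ESCs 3 genes were called higher (26.4% of all genes tested) and 4 lower (28.1%), with Tdh the only member past 2-fold, on the lower side (5.59% of all genes were past 2-fold higher and 6.31% lower). The median of the set was -0.030 on the log2 scale and that of all genes tested -0.0092. At T24 5 were higher (30.8% of all genes) and 5 lower (30.1%), with Pecam1 the only member past 2-fold (7.88% higher and 7% lower among all genes). The median of the set was -0.100. At T48 8 were higher (31% of all genes) and 1 lower (30.1%), and 6 were past 2-fold higher (7.83%) and 1 past 2-fold lower (8.25%), with Utf1 not called. The median of the set was then 1.13, against 0 over all genes. Scaled to spike-in counts, 2 rather than 7 genes were called in ESCs, 1 higher and 1 lower, and calls among all genes fell likewise from 54.5% to 29.8%. The median of the set was then 0.029 in ESCs, -0.029 at T24 and 1.19 at T48, so its sign in ESCs depended on the scaling. The same scaling moved the median of all genes tested in ESCs from -0.0092 to 0.044. The genes were picked as a marker set with earlier results of these data known, so these counts describe the set and test nothing about it.

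**Figure D3:**
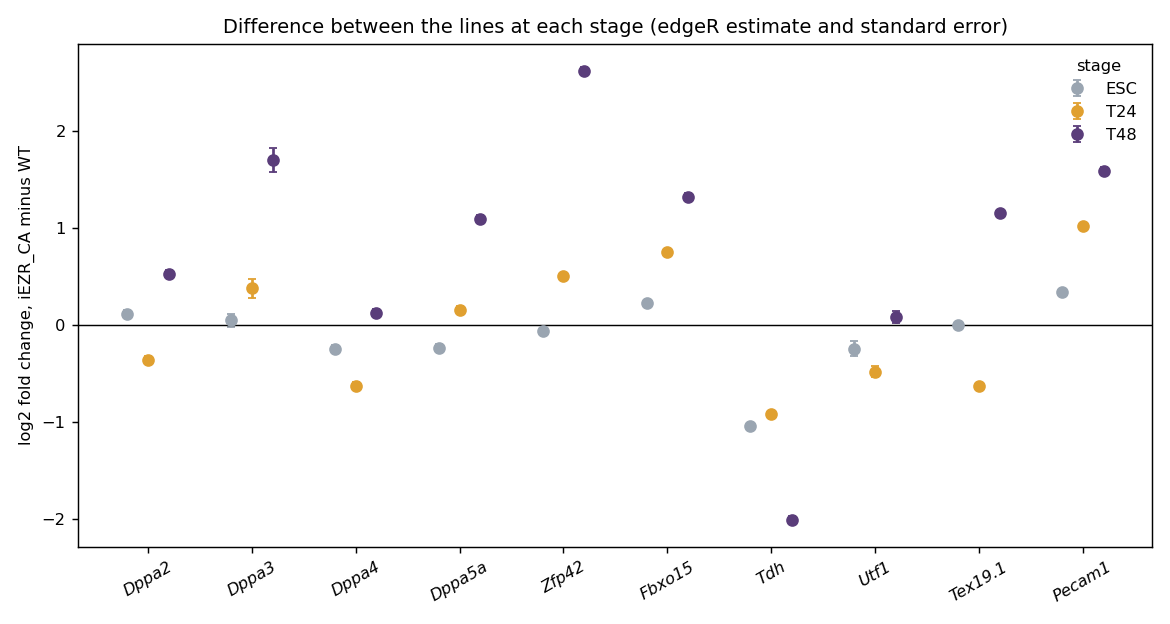
Log2 fold change of iEZR_CA over WT cells with its standard error from edgeR, for the 10 genes at ESC (grey), T24 (orange) and T48 (purple). At T48 the values run from -2.01 for Tdh to 2.63 for Zfp42, and Dppa2, Dppa4, Utf1 and Tex19.1 lie below 0 at T24 and above 0 at T48.

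Over time, the WT cells moved the set in 2 steps. From ESC to T24, 4 genes rose (Utf1, Dppa4, Dppa2 and Tex19.1; 31.8% of all genes were called higher) and 6 fell (33.6%), Tdh the most, by 2.15 on the log2 scale. From T24 to T48 all 10 fell (32.9% of all genes lower, 32.8% higher), 7 of them past 2-fold (9.81% of all genes). Between ESC and T48, 2 were higher (37.1%), 7 lower (37.4%) and Dppa2 not called (log2 fold change -0.085 ± 0.042 SE, adjusted p = 0.064). Its log2 fold change was 0.18 with spike-in scaling, and a fall was called with no filter on low counts and without WT ESC replicate 2 or iEZR_CA ESC replicate 1 (adjusted p = 0.045, 0.012 and 0.049). The largest loss was that of Zfp42, 22.5-fold. In iEZR_CA cells 4 genes rose (27.1% of all genes) and 4 fell (28.9%) from ESC to T24, with Zfp42 and Tex19.1 not called. From T24 to T48, 6 fell (30%) and Tex19.1 rose (29.6%), with Dppa3, Dppa4 and Utf1 not called, nor Dppa2 with spike-in scaling (log2 fold change -0.15, adjusted p = 0.38). From ESC to T48, 4 were higher (35.2%) and 6 lower (35%), and the largest loss was that of Tdh, 14.2-fold. Spike-in scaling shifted the median of all genes upward in the comparisons of time, by 0.14 from ESC to T24 and 0.27 from ESC to T48 in WT cells, so the changes over time are relative to that shift.

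**Figure D4:**
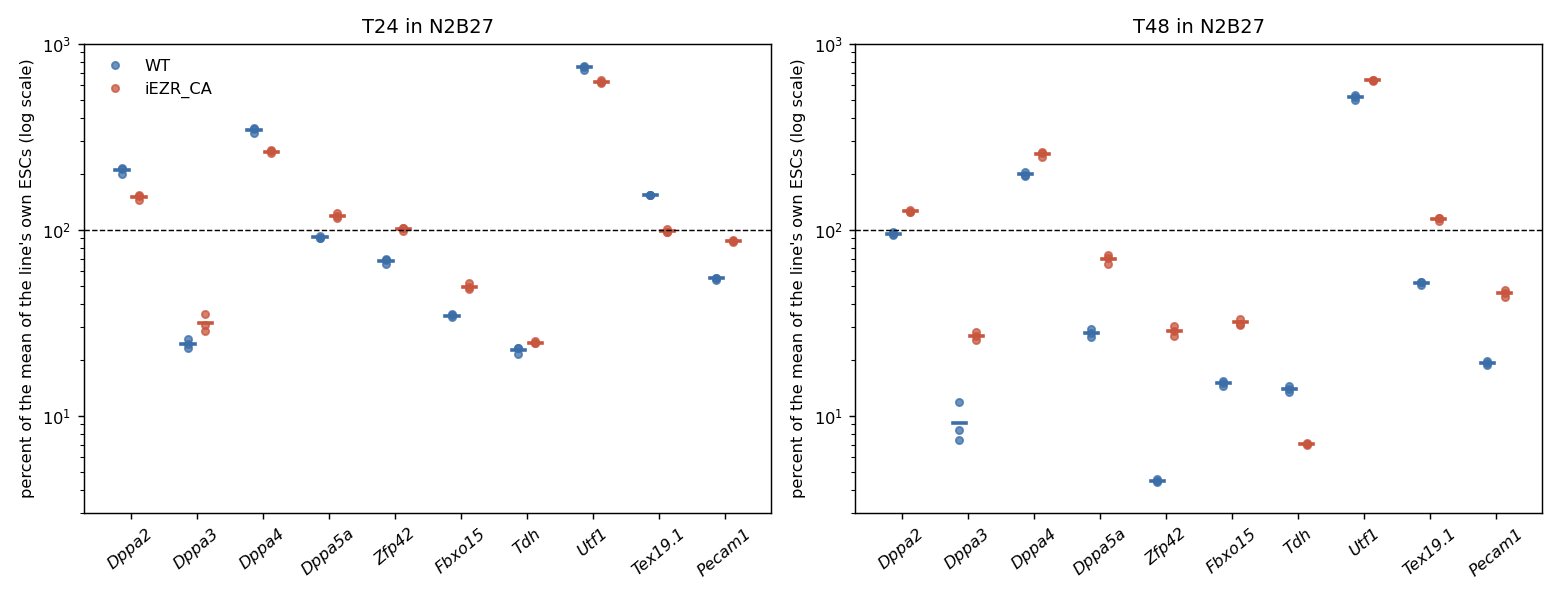
Level at T24 (left) and T48 (right) in percent of the mean of the same line's ESC libraries (log scale, dashed line at 100%), 1 point a library with a bar at the mean, for WT (blue) and iEZR_CA (red) cells. At T48 the iEZR_CA points lie above the WT points for each gene except Tdh.

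Whether the course over time differed between the lines was tested with the interaction of line and time. From ESC to T24 the change was more positive in iEZR_CA cells for 6 genes (21.5% of all genes) and more negative for 3, Dppa2, Dppa4 and Tex19.1 (16.9%), with Utf1 not called. The differences for Dppa3 (log2 fold change 0.33 ± 0.12 SE, adjusted p = 0.02) and Tdh (log2 fold change 0.13 ± 0.043 SE, adjusted p = 0.015) did not pass in every alternative. They were not called by DESeq2 (adjusted p = 0.071 and 0.056), the value for Dppa3 not without WT ESC replicate 1 or WT T24 replicate 2 or iEZR_CA ESC replicate 3 or iEZR_CA T24 replicate 1 (adjusted p = 0.05 to 0.09), and the value for Tdh not without WT T24 replicate 3 or iEZR_CA ESC replicate 3 (0.079 and 0.063). Utf1 was called without WT ESC replicate 3 (adjusted p = 0.0011), without iEZR_CA ESC replicate 1 (0.02) and with no filter on low counts (0.0033). With spike-in scaling 4 rather than 9 genes were called, as calls among all genes fell from 38.3% to 13.1%. From ESC to T48 the change was more positive for 9 genes (25.7% of all genes), 6 of them past 2-fold (7.55%), and more negative for Tdh (20% of all genes, with 5.73% past 2-fold). Those of Dppa2, Dppa4 and Utf1 were 0.41, 0.38 and 0.32 with spike-in scaling and were not called (adjusted p = 0.097, 0.14 and 0.22). From T24 to T48 it was again more positive for 9 (25.3%) and more negative for Tdh (20.9%).

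Levels of iEZR_CA cells at T48 were also set beside those of WT cells at T24, a day earlier in the course. Fbxo15 and Pecam1 were slightly higher in iEZR_CA T48 cells, by 0.11 and 0.091 on the log2 scale (adjusted p = 0.0014 and 0.022 by edgeR; 29.7% of all genes were higher). The call for Pecam1 was lost without WT T24 replicate 1 or iEZR_CA T48 replicate 2 (adjusted p = 0.13 and 0.22), with no filter on low counts (0.11) and by DESeq2 (0.061), and that for Fbxo15 without iEZR_CA T48 replicate 2 (0.06). Dppa3 did not differ past the threshold (log2 fold change 0.19 ± 0.10 SE, adjusted p = 0.11). The other 7 were lower (29.4% of all genes), from -0.42 for Tex19.1 to -1.30 for Zfp42 and -2.73 for Tdh. Spike-in scaling shifted the median of all genes by 0.17 here. Utf1, Tex19.1 and Pecam1 were then at -0.27, -0.24 and 0.27 and not called (adjusted p = 0.066, 0.12 and 0.073). This comparison shares its libraries with those above.

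Between genes, levels can be compared only per length, as normalized counts per kilobase of exon. In WT ESCs Dppa5a was the highest at 34942 ± 1013 (SD, n = 3), then Zfp42 at 9707 ± 305, Tdh at 5016 ± 101 and Fbxo15 at 2483 ± 73. Utf1 and Tex19.1 followed with overlapping libraries (1618 ± 186 and 1591 ± 51.5), as did Dppa3 and Dppa4 (705 ± 43.2 and 663 ± 27.3), with Dppa2 and Pecam1 last (523 ± 26 and 484 ± 5.81). At T48 Dppa5a and Utf1 were the 2 highest in both lines, at 9774 ± 455 and 8366 ± 267 per kilobase in WT cells and 20878 ± 1146 and 8847 ± 64.8 in iEZR_CA cells. Zfp42 stood seventh in WT cells (436 ± 7.2) and next after those in iEZR_CA cells (2683 ± 178). The lowest was Dppa3 in WT cells (64.9 ± 16.5) and Tdh in iEZR_CA cells (172 ± 1.55).

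Over the 18 libraries, which share lines and stages, some genes were of like course. Zfp42 and Dppa5a were alike (Pearson r = 0.988 of log2 normalized counts, as a description), as were Dppa3 and Fbxo15 (0.977), Dppa4 and Utf1 (0.972), and Fbxo15 and Pecam1 (0.946). Zfp42 was also like Pecam1 (0.945) and Fbxo15 (0.874), so these pairs were not separate groups. Tdh was most like Dppa3 (0.648). Among 12784 genes with a mean of at least 50 normalized counts, the gene most like each member by the same measure was Cd9, a tetraspanin of the cell surface, for Fbxo15 (0.996), Sulf2, a heparan sulfatase, for Pecam1 (0.995), Cass4 for Utf1 (0.994), Glb1, a lysosomal galactosidase, for Dppa3 (0.986) and Trip12, a ubiquitin ligase, for Tex19.1 (0.982). Cass4 went from 3.14 normalized counts in WT ESCs to 586 at T24. For the other 5 members the nearest was a pseudogene copy of the same member: Zfp42-ps1 for Zfp42 (0.998), Gm13929 for Tdh (0.998), Gm6083 for Dppa5a (0.996), Gm14058 for Dppa4 (0.992) and Gm9788 for Dppa2 (0.982).

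Reads of these members were therefore uncertain to the extent that they were split with such copies. In a search of the annotated transcripts, made after the values were seen, 13 pseudogenes matched 6 of the members at 95% identity or more. Their reads came to 29.2% to 35.1% of those on Dppa2, 25.2% to 33% for Dppa4, 15.4% to 21% for Tdh, 10.8% to 22.8% for Dppa3, 7.68% to 11% for Zfp42 and 7.54% to 8.78% for Dppa5a over the 18 libraries. Fbxo15, Utf1, Tex19.1 and Pecam1 had no such copy. The share was alike in the lines, for Dppa2 a median of 30.5% of the member's reads in WT and 29% in iEZR_CA libraries on its copy Gm9788, for instance. Adding the reads of the copies to the member changed no call and no direction in the 13 comparisons.

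**Figure D5:**
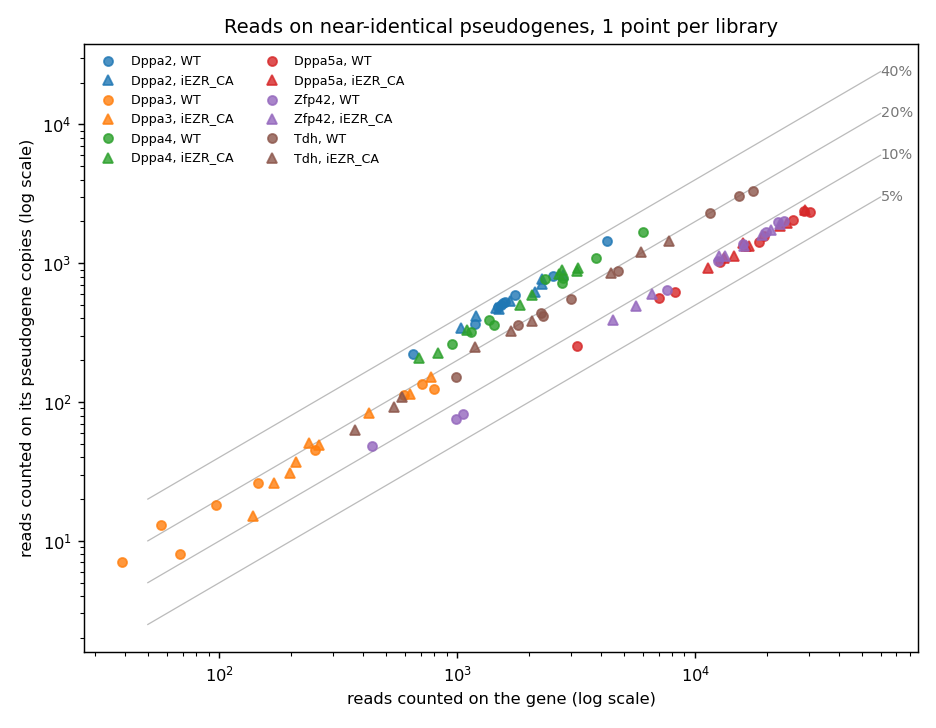
Reads counted on near-identical pseudogenes against reads counted on the gene itself, 1 point a library on log axes, for the 6 genes with such copies in WT (circles) and iEZR_CA (triangles) cells, with grey lines at fixed percentages. Points of both lines follow the same course for each gene, between 5% and 40% of the gene's own reads.

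The genes these markers work with were counted from lists written with earlier results known, and each count is to be read against the 26.4% to 31% of all genes called in a given direction between the lines. Of 12 core pluripotency factors, which include genes the study itself plotted and so are no independent evidence, 0 were higher and 9 lower in iEZR_CA ESCs (median -0.25), 8 and 2 at T24 (0.77) and 10 and 2 at T48 (1.84), where the median of all genes tested lay between -0.0092 and 0 over the 3 stages. Esrrb, an orphan nuclear receptor, had 379 normalized counts in WT and 2596 in iEZR_CA cells at T48 (log2 fold change 2.77), and Tfcp2l1 and Nanog were higher by 2.24 and 1.44. At T24 the 2 lower ones were Pou5f1 and Nr0b1 (-0.48 and -0.28), and at T48 Pou5f1 and Sall4 (-0.27 and -0.11). Of 18 other ESC-associated genes, 5 were higher and 10 lower in ESCs (median -0.16), 10 and 6 at T24 (0.40) and 14 and 2 at T48 (0.60). Slc2a3, a glucose transporter, was higher at T48 by 1.20 and L1td1, an RNA-binding protein, by 0.33, with Mkrn1 at 0.11. Lin28a, which blocks let-7 maturation, and Fut4 were the 2 lower ones. Fut4 was past 2-fold lower at T48, and 6 of the 14 higher ones were past 2-fold higher. Lin28a was lower at each stage, with 1591 normalized counts in WT and 259 in iEZR_CA ESCs (-2.64, -2.22 and -0.73).

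Dppa3 acts on the DNA methylation machinery, of which 7 genes were listed. In iEZR_CA cells 4 were higher and 1 lower in ESCs, all 7 were lower at T24 (median -0.51), and 4 were higher and 2 lower at T48. Dnmt3b, a de novo methyltransferase, rose from 3135 normalized counts in WT ESCs to 30573 at T24 and 59626 at T48, and in iEZR_CA cells from 3655 to 12245 and 26682. Its log2 fold change between the lines was -1.32 at T24 and -1.15 at T48, so that the difference in Dnmt3b was opposite to that of Dppa3. At T48 2 of the 4 higher genes, Dnmt3l and Tet2, were past 2-fold, in the direction of Dppa3. Of the 2 lower genes, 1 was past 2-fold, Dnmt3b. Dnmt3a was the other gene lower at T48 (-0.53), and Tet1 was not called there (-0.017). Uhrf1, the partner Dppa3 binds, differed little, by -0.31 at T24 and 0.28 at T48, and Dnmt1, which it recruits, by -0.085 and 0.063. Of the 10 tested 2-cell genes, downstream of Dppa2 and Dppa4, 4 were higher and 4 lower in iEZR_CA ESCs (median -0.62), 1 and 4 at T24 (-0.37) and 0 and 2 at T48 (-0.72). Zscan4d, the most abundant, had 47.6 normalized counts in WT and 14.7 in iEZR_CA cells at T24. These genes come in near-identical families, so that their counts are uncertain. Of 8 enzymes of threonine, serine and glycine metabolism around Tdh, 1 was higher and 5 lower in iEZR_CA ESCs, 2 and 2 at T24 and 3 and 4 at T48. Gldc, of the glycine cleavage system, was the 1 higher in ESCs (0.74), and Shmt2, which makes glycine in mitochondria, was lower at each stage (-0.59, -0.52 and -1.12). Shmt1 and Amt, next in abundance, were both higher at T48 (0.40 and 0.33). Of all genes tested, 26.4% were called higher and 28.1% lower in ESCs, 30.8% and 30.1% at T24 and 31% and 30.1% at T48. The 2 and 2 of 8 enzymes at T24 are near these shares. With 8 genes, the counts describe the list and test nothing about it.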

How the data were processed

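RNA of 18 libraries (WT and iEZR_CA at ESC, T24 and T48, 3 each) was sequenced paired-end. The authors trimmed reads with Trim Galore 0.6.5, aligned them to GRCm38/mm10 with GSNAP 2015-09-29 and counted reads per gene of Ensembl release 81 with HTSeq; the values are the deposited raw counts. Whether the counting used strand is not given in the sources used here. The study tested with DESeq2.

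Here, the 92 spike-ins and the 5 rows that name no gene were set aside, leaving 53801 genes, of which 53706 had a symbol in GENCODE M21. Genes were filtered with filterByExpr (18469 kept). Group means of all 6 groups were fitted with edgeR 4.0.16 (R 4.3.3; TMM, quasi-likelihood with robust dispersion), and p-values were adjusted by Benjamini-Hochberg over all genes tested, with a call at 0.05. Contrasts compared the lines at each stage, the stages within each line, their interaction, and iEZR_CA T48 with WT T24. Normalized counts used DESeq2 1.42.0 size factors. Pseudogene copies were matched with BLAST 2.17.0. Other genes were named only from fixed lists, at most the 4 most abundant of each and any that moved against the rest, or as the gene most like a member. The members and lists were chosen with earlier results of these data known. Alternatives were DESeq2 size factors, spike-in scaling, no filter, at least 10 counts in every library, DESeq2's Wald test, only the groups compared, each library left out, and pseudogene reads added; the last was chosen after seeing the data.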

Additional observations from a re-analysis of the deposited data

Results flagged for a closer look

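The change over time differed between the lines for each of the 10 genes in at least 1 interval, by edgeR's test of the interaction of line and time (log2 difference of the iEZR_CA change from the WT change, n = 3 libraries a group). Such calls were common: 38.3% of all genes tested were called from ESC to T24, 45.8% from ESC to T48 and 46.2% from T24 to T48. From ESC to T24 the difference was positive for Pecam1 (0.68, adjusted p = 3.2e-20), Zfp42 (0.57, adjusted p = 1.5e-14), Fbxo15 (0.53, adjusted p = 4.2e-17), Dppa5a (0.39, adjusted p = 7.5e-06), Dppa3 (0.33, adjusted p = 0.02) and Tdh (0.13, adjusted p = 0.015). It was negative over that interval for Tex19.1 (-0.63, adjusted p = 1.7e-19), Dppa2 (-0.47, adjusted p = 9.5e-11) and Dppa4 (-0.38, adjusted p = 3.7e-08). From ESC to T48 it was positive for Zfp42 (2.69, adjusted p = 2.2e-35), Dppa3 (1.66, adjusted p = 8.2e-16), Dppa5a (1.33, adjusted p = 8.4e-14), Pecam1 (1.25, adjusted p = 2.7e-31), Tex19.1 (1.15, adjusted p = 4.5e-32), Fbxo15 (1.10, adjusted p = 8.9e-32), Dppa2 (0.42, adjusted p = 7.5e-09), Dppa4 (0.38, adjusted p = 3.6e-08) and Utf1 (0.33, adjusted p = 0.014), and negative for Tdh (-0.97, adjusted p = 2.8e-26). From T24 to T48 it was positive for Zfp42 (2.12, adjusted p = 8.6e-32), Tex19.1 (1.78, adjusted p = 6.2e-43), Dppa3 (1.32, adjusted p = 3.6e-10), Dppa5a (0.94, adjusted p = 2.4e-11), Dppa2 (0.89, adjusted p = 1.6e-22), Dppa4 (0.75, adjusted p = 1.8e-21), Fbxo15 (0.58, adjusted p = 5.4e-17), Pecam1 (0.57, adjusted p = 2.1e-14) and Utf1 (0.57, adjusted p = 0.00012), and negative for Tdh (-1.10, adjusted p = 1.1e-27). The ESC to T24 values of Dppa3 and Tdh were not called by DESeq2's Wald test (adjusted p = 0.071 and 0.056). With spike-in scaling, the calls of Dppa2, Dppa3, Dppa4, Dppa5a and Tdh from ESC to T24 were lost. So were those of Dppa2, Dppa4 and Utf1 from ESC to T48. The 3 intervals share libraries, so these values are not independent. Groups of 3 libraries are too small for a test of single outlying libraries.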

How the results depend on the processing

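Spike-in scaling moved the counts most. The genes called between the lines in ESCs went from 7 to 2 and those past 2-fold from 1 to 0, and the genes called in the interaction from ESC to T24 went from 9 to 4. Calls over all genes fell as well, from 54.5% to 29.8% in ESCs (past 2-fold, 11.9% to 11.3%) and from 38.3% to 13.1% in that interaction. It moved the median of the set by more than the spread between replicates in 11 of 13 comparisons. The sign of that median changed between the lines in ESCs (0.029) and from ESC to T24 in iEZR_CA cells (0.14). In those comparisons spike-in scaling moved the median of all genes to 0.044 and 0.14. It turned 3 directions, Dppa2 from ESC to T48 in WT cells (0.18), Tex19.1 from ESC to T24 in iEZR_CA cells (0.13) and Dppa4 from T24 to T48 in iEZR_CA cells (0.075), none of them called. The cause was not tested. Some calls lost under this scaling had a larger log2 fold change than in the main fit, such as Pecam1 in iEZR_CA T48 against WT T24 cells (0.27, main 0.091). Others had a smaller one, such as Dppa5a from ESC to T24 in WT cells (-0.011, main -0.15). The share of spike-in counts differed within groups, from 0.575% to 0.874% in the iEZR_CA T48 libraries. The difference in Tex19.1 between the lines in ESCs, near 0, turned with no filter (-0.010), without WT ESC replicate 1 (-0.024) and without iEZR_CA ESC replicate 2 (-0.016) or 3 (-0.0083). It ran from -0.024 to 0.036 over all libraries left out in turn. That in Dppa3 turned without iEZR_CA ESC replicate 1 (-0.0021) and ran from -0.0021 to 0.099. With each library left out in turn, 6 to 8 genes were called between the lines in ESCs, 10 at T24 and 9 at T48, and 7 to 10 in the interaction from ESC to T24. In the same fits 49.1% to 54.5% of all genes were called in ESCs, 55.1% to 60.8% at T24 and 56.3% to 61.5% at T48. In that interaction 34.5% to 38.4% of all genes were called. DESeq2 size factors and the minimum of 10 counts changed no call of a single gene. No paired analysis was possible because the labels give no replicate numbers. Only 3 libraries a group limit the precision, and whether reads of pseudogenes were split by the authors' counting could be judged only from annotated copies.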

Other observations

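Genes near or related to the members were also counted between the lines. Ooep and Khdc3, KH-domain genes of the oocyte's subcortical complex related to Dppa5a, were the 2 of 5 such genes with enough reads to be tested, and both were higher in iEZR_CA cells at each stage. Ooep had 171 normalized counts in WT and 612 in iEZR_CA cells at T48 (log2 fold change 0.71 in ESCs, 0.68 at T24 and 1.80 at T48), and Khdc3 was higher by 3.75 at T48. Tex19.2, the paralogue of Tex19.1, was higher in ESCs (0.60), lower at T24 (-0.26) and higher at T48 (2.21), at 40.6 normalized counts in WT and 175 in iEZR_CA cells at T48.

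A list of 14 germline genes had 7 called higher and 3 called lower in ESCs of the iEZR_CA line, 5 and 6 at T24, and 6 and 6 at T48, where 26.4% to 31% of all genes tested were called in a given direction, with medians of 0.54, -0.24 and 0.19. Rpl10l, a ribosomal protein gene of the testis, had a log2 fold change of -0.47 at T24 and 1.08 at T48, and Dazl, an RNA-binding protein of germ cells, of -0.53 and 0.53. Hormad1 and Stk31, next in abundance, had -0.98 and 0.21 at T24 and 0.18 and 0.94 at T48. Of the 3 SCF ligase genes matched, Rbx1 was higher at each stage (at T48 0.36), Skp1a was lower at each stage (-0.38) and Cul1 was higher in ESCs and lower at T24 and T48 (-0.23).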
